A study of Rattus norvegicus with 6 samples.

Results

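DNA repair and damage signalling genes were examined in the renal cortex of rats given 2,2-bis(bromomethyl)-1,3-propanediol (BBMP), a brominated diol used as a flame retardant that is carcinogenic in rodents. The set held 51 genes, listed by name for their roles in excision, mismatch, strand-break and crosslink repair. Of these, 40 had at least 1 array probe whose RefSeq transcript accession carried their symbol. Of those 40, 39 passed the filter on dim probes, which asks for a signal well above background on every array of control or of BBMP, and were tested among 31582 genes or sequences in all. All 39 were well above background on all 6 arrays. Brca1, which acts in homologous recombination, had 1 matched probe, and that probe was not well above background on any of the 6 arrays. No probe was matched to Lig3, Ercc4, Ercc5, Ddb1, Ddb2, Msh6, Rad52, Prkdc, Atr, Fanca or Rev1, which were not analysed here.

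The animals were male Sprague-Dawley rats, Crl:CD(SD), bought at 5 weeks of age. The control group was 3 rats given corn oil, the vehicle, for 4 weeks, and the BBMP group was 3 rats given BBMP at 1000 mg/kg/day for 4 weeks. Total RNA of the renal cortex of each animal was labelled with Cy3 and read on 1 one-colour Agilent array. A single dose and a single time were studied, and mRNA was measured, not repair activity or DNA lesions. The comparison asks which of these genes differed in mRNA level after BBMP.

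DNA repair is divided by the kind of lesion. In base excision repair a glycosylase removes a damaged base, an endonuclease cuts the strand, and a polymerase and a ligase close the gap. Nucleotide excision repair cuts out a short oligonucleotide around a bulky adduct, either anywhere in the genome or where a transcribing polymerase has stalled. Mismatch repair corrects replication errors, and strand breaks are joined either by homologous recombination or by end joining. The Fanconi anaemia pathway opens crosslinks between the strands, translesion polymerases copy past lesions, and kinases such as ATM and CHK1 signal that damage is present. Most cells of the adult kidney cortex are not dividing, and excision repair and end joining do not need a sister chromatid.

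Levels are given as the log2 of the processed signal over the array's 75th percentile, so 0 is a signal at that percentile. They compare a gene between samples, not one gene with another. Differences are BBMP minus control on this log2 scale, and a gene is called higher or lower where limma's adjusted p was under 0.05. That percentile was 943 to 950 for the controls and 1244 to 1259 after BBMP. The 3 controls shared 1 slide and scan and the 3 BBMP samples shared the other, so a slide or scan effect and the effect of BBMP cannot be told apart. All 10 proximal tubule markers, such as Slc34a1 and Lrp2, were well above background on all 6 arrays, and 1, Hnf4a, was called higher and 0 lower. Of 10 tested markers of proliferating cells, 10 of leukocytes and 5 of medulla, papilla and urothelium, 1 each was called higher (Tyms, Csf1r and Upk1b) and 0 lower. The log2 of the summed level overlapped between the groups for each of these lists: 3.15 to 3.57 in control and 3.14 to 3.26 in BBMP samples for proliferating cells, 6.46 to 6.63 and 5.995 to 6.64 for leukocytes, 10.8 to 11.0 and 10.8 to 10.9 for proximal tubule, and 8.33 to 9.05 and 8.48 to 8.95 for medulla. Of the listed markers, Mki67, Top2a, Mcm5, Cd79a and Slc12a1 had no matched probe, and Aurkb and Itgam were not well above background in either group. The summed levels mostly follow the brightest markers, such as Lyz2 (mean level 6.37) for leukocytes and Umod (8.42) for medulla. They say little of the dimmer ones. In a bulk sample, fewer cells of a type and less RNA per cell cannot be told apart.

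Few repair genes changed in the BBMP group, and the changes were small. Of the 39 tested members, 3 were called higher (Xrcc1, Ercc1 and Fancc) and 2 were called lower (Ercc3 and Ercc6). That is 12.8% of the members, beside 17.9% of all genes tested, of which 10.2% were called higher and 7.68% lower. Controls and BBMP samples were fully separated in 17 of 39 members, or 43.6%, and the background share of such genes was 43.6% as well. An unadjusted p under 0.05 was reached by 13 members, while the background share was 36.6%. With this scaling, the shares of members called and without overlap were thus near or below those of all genes. The median difference of the members was 0.039 and that of all genes 0.050.

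The differences of the repair genes ran from -0.40 for Ercc3 to 0.47 for Fancd2, and none of the 39 tested reached 2-fold. Few of all genes did so either, 510 of 31582, so the lack of such a member is no trait of the set. The median size of a difference, without its sign, was 0.12 in the members, 0.19 in the 12077 genes named from the RefSeq table and 0.21 in all genes tested. The 95% interval of the difference lay within 1.5-fold in either direction for 34 of 39 members, beside 67.2% of named genes and 61.3% of all genes. The 5 members whose interval reached past 1.5-fold were Xrcc1, Neil1, Ercc3, Chek1 and Fancd2. With all genes ranked by mean signal and split into 4 groups of equal size, from dimmest to brightest, 4, 8, 17 and 10 members fell in them. The median difference of all genes was 0.20 in the dimmest group and 0.059, -0.0080 and -0.0029 in the others. The members' medians in the same groups were -0.23, -0.012, 0.067 and -0.024, and of the 4 dimmest members Fancd2 had a positive difference and Atm, Chek1 and Rad18 negative ones.

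**Figure D1:**
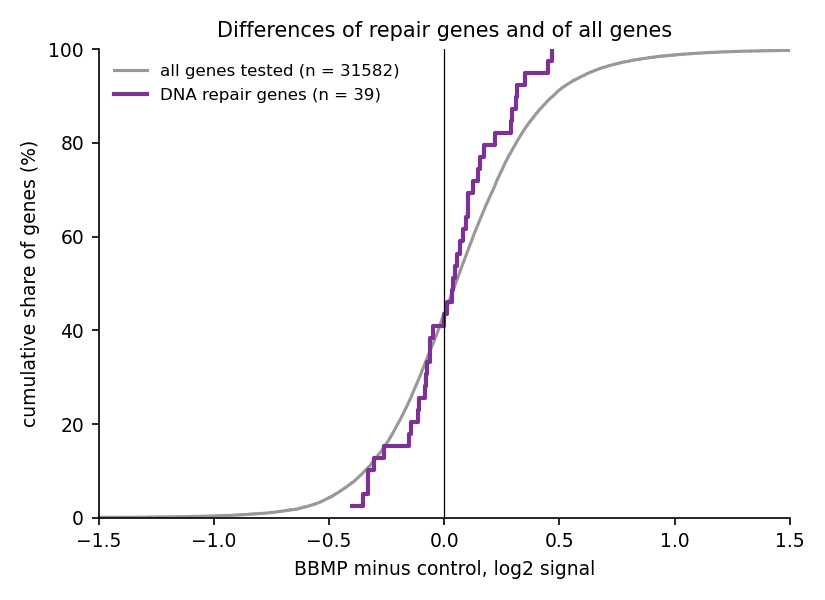
Cumulative share of genes, in percent, against the BBMP minus control difference in log2 signal, for the 39 repair genes tested (purple) and all 31582 genes tested (grey). The repair genes end at -0.40 and 0.47, and both curves cross 0 at nearly the same height. The ends of 39 values and the tails of 31582 are not comparable, since the range grows with the number of genes. The horizontal axis stops at -1.5 and 1.5, and a few genes of the whole table lie beyond it.

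How the calls depend on the scaling and on single animals bears on each of these genes. With quantile normalization and with cyclic loess, 3 members were called higher and 6 lower, with median scaling 2 and 5, and with normexp background correction 3 and 3, so the split between higher and lower calls changed with the scaling. Of all genes, 16.7% were called with quantile normalization, 17.2% with cyclic loess, 18.5% with median scaling and 20.2% with normexp. The 9 of 39 members called with quantile normalization and with cyclic loess were a larger share than that of all genes. The 7 called with median scaling and the 6 with normexp were not. The genes added on the lower side in at least 1 of these settings were Xrcc4, Lig4, Rad18 and Atm. Leaving out 1 array at a time left 0 to 2 members called by limma, where 10 to 12 members had an unadjusted p under 0.05 and 0.0095% to 12.7% of all genes were called. Ercc1 and Fancc stayed called without control replicate 3 and Xrcc1 without BBMP replicate 1. No member was called without control replicate 1, control replicate 2, BBMP replicate 2 or BBMP replicate 3. Slide row 1 held control replicate 3 and all 3 BBMP arrays. Within that row alone 0 members and 0 genes in all were called, with 5 members at an unadjusted p under 0.05, and the lone control was assumed to vary like the BBMP samples.

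**Figure D2:**
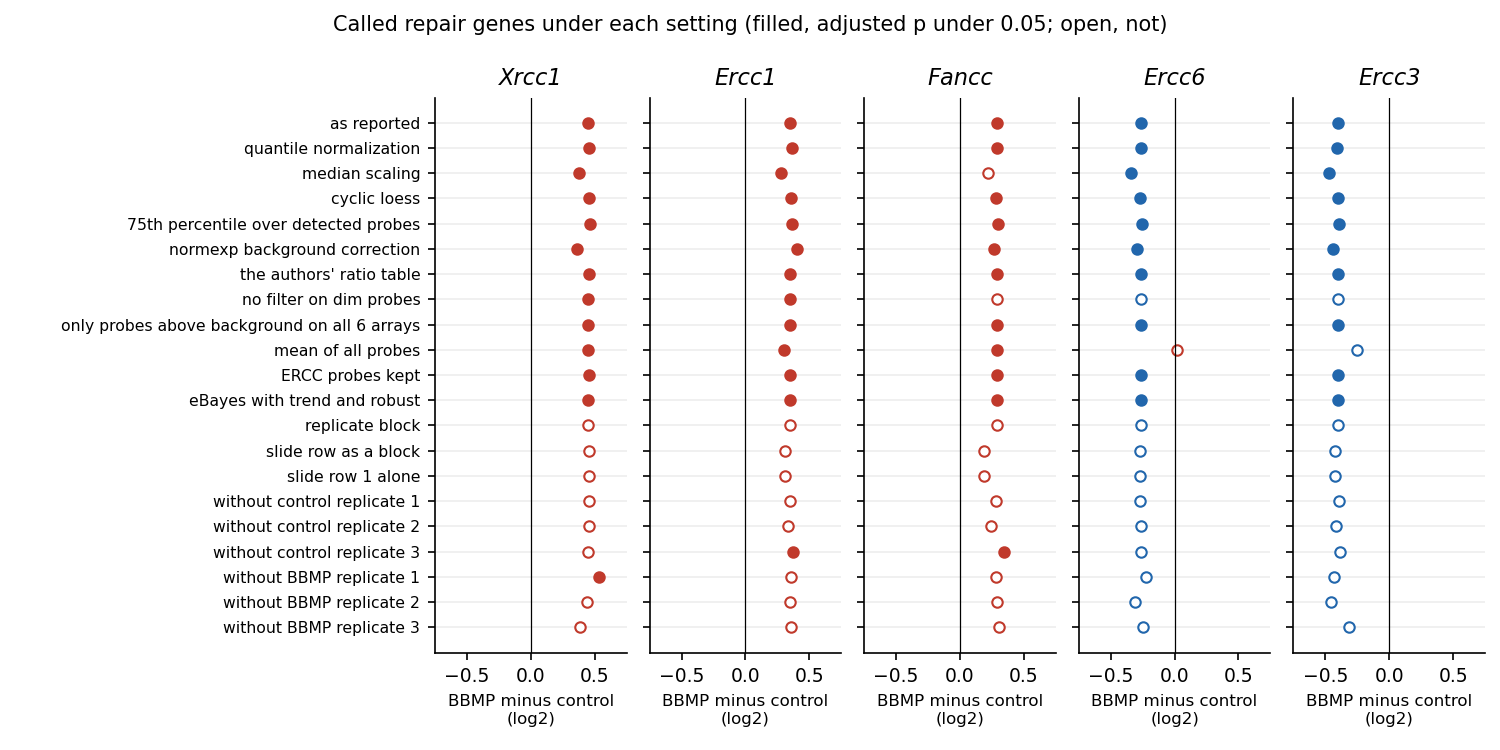
Difference BBMP minus control in log2 signal (horizontal axis) for each of the 5 called repair genes under the reported setting and 20 alternatives (vertical axis); filled points have an adjusted p under 0.05 and open points do not. The sign of Xrcc1, Ercc1, Fancc and Ercc3 was the same in every setting shown, and Ercc6 moved to 0.019 with the mean of all its probes.

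**Figure D3:**
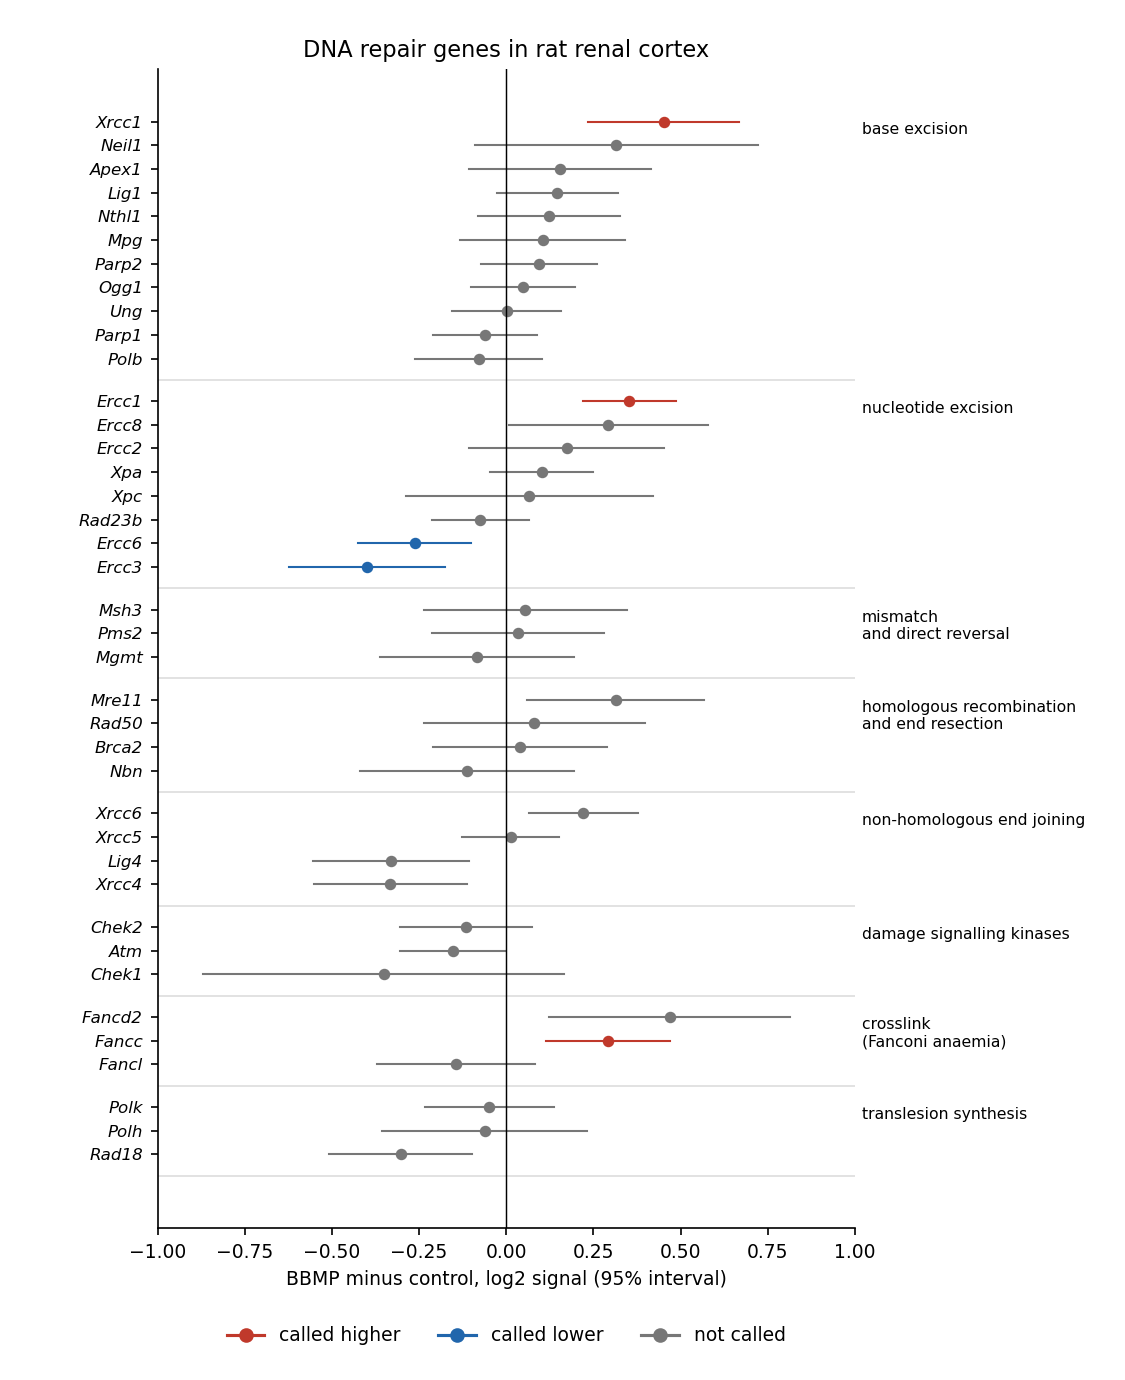
BBMP minus control difference in log2 signal with its 95% interval for the 39 tested repair genes, grouped by pathway; red marks genes called higher, blue genes called lower and grey genes not called. Calls fall in base excision (1 gene), nucleotide excision (3 genes) and crosslink repair (1 gene), and no point lies beyond 0.5 in either direction.

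Promoters were set beside these values, from 250 bases before to 50 after the start site in the RefSeq table of the GRCr8 assembly, which held 36 windows for 35 of the 39 tested members. Both strands were searched for CCAAT (NF-Y), for TTTGGCGC or TTTCCCGC (E2F, the factor of S-phase genes), for TGACNNNGC (the antioxidant response element), for GGGCGG (the GC box) and for the p53 half-site. The GC box was in 69.4% of the members' windows and 33.1% of all 33465, and the E2F letters in 13.9% and 1.45%. CCAAT was in 33.3% and 37.5%, the antioxidant response element in 13.9% and 12.1%, and the p53 half-site in 5.56% and 7.98%. The members' windows had a median GC content of 61.9%, against 51.7% for all windows, and its part in the shares of GC-rich motifs was not tested. The E2F letters were in 5 members, Fancc, Fancd2, Fancl, Atm and Chek1, all in crosslink repair or damage signalling. Of these, Fancc was called higher, Fancd2 had a positive difference, and Fancl, Atm and Chek1 had negative ones, none of the last 4 called.

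The windows of the 3 crosslink genes with these letters are shown with those of Xrcc1 and Ercc1, the 2 excision genes called higher. They are printed 5′ to 3′ on the strand of the gene, with matches to any of the motifs in capitals.
Fancc (chr17:1686839-1687138, + strand): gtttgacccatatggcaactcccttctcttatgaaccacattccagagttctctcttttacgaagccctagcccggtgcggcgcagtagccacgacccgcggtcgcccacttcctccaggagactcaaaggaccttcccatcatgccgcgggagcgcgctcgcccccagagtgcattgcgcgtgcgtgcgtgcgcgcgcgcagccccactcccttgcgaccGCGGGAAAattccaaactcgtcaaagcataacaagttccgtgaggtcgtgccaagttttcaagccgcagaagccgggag
Fancd2 (chr4:148234458-148234757, + strand): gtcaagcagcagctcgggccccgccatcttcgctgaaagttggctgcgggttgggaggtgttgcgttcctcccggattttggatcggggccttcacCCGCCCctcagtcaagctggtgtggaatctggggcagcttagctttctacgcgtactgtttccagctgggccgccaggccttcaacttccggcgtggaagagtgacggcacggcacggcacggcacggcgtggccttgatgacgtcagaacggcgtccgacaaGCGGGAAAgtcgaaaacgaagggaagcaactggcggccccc
Fancl (chr14:104450737-104451036, + strand): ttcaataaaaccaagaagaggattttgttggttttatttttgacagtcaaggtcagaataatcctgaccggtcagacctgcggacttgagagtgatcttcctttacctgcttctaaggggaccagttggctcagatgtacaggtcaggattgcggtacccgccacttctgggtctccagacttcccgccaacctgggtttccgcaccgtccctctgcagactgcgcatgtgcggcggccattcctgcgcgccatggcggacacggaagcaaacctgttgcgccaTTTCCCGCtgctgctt
Ercc1 (chr1:88124491-88124790, + strand): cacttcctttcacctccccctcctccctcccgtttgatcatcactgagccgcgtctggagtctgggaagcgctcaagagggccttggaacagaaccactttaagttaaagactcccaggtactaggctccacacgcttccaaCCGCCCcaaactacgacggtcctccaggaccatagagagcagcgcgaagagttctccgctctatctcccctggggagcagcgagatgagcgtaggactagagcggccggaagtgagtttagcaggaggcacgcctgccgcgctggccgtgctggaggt
Xrcc1 (chr1:89268939-89269238, + strand): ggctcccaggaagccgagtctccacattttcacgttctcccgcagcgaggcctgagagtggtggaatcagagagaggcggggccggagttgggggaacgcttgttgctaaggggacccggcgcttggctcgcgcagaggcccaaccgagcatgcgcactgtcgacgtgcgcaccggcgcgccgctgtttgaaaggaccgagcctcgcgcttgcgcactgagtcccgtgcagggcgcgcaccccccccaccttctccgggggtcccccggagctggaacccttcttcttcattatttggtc
The capitals are an E2F match in Fancc at bases 222 to 229, in Fancd2 at bases 260 to 267 and in Fancl at bases 285 to 292 of the window, a GC box in Fancd2 at bases 97 to 102, and a GC box in Ercc1 at bases 143 to 148. The Xrcc1 window, with a GC content of 66.0%, held none of the motifs searched, nor did that of Ercc3, and Ercc6 held 1 CCAAT. The genes called higher therefore shared none of the searched letters in these windows. A match is a run of letters and says nothing of whether a factor binds there.

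In base excision repair, 1 of 11 tested members rose and 0 fell, and the median difference was 0.10. Of all genes, 10.2% were called higher and 7.68% lower, and the median was 0.050. Xrcc1, the scaffold that gathers the polymerase and ligase at a single-strand break, had log2 levels of 2.13, 2.13 and 2.12 in the control samples and 2.42, 2.60 and 2.72 in the BBMP samples. All 3 BBMP samples were above all 3 controls, which lay within 0.012 of each other. The means were 2.13 ± 0.00622 (SD, n = 3) in controls against 2.58 ± 0.149 (SD, n = 3) after BBMP, and Xrcc1 was 1.37-fold higher, with a difference of 0.45 ± 0.0877 (SE; limma adjusted p = 0.0255). Leaving out single arrays gave a difference of 0.38 to 0.53 with adjusted p of 0.0485 to 0.0805, and within slide row 1 it was 0.46. Xrcc1 was called in 11 of the 14 other settings.

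The glycosylases, which each recognise their own damaged bases, were not called. Neil1, which removes oxidised bases, had levels of -1.53, -1.25 and -1.09 in the control samples and -0.84, -1.25 and -0.82 in the BBMP samples. These groups overlapped, since BBMP replicate 2 lay below control replicate 3, and the difference was 0.32 ± 0.165 (SE; limma adjusted p = 0.223), with a 95% interval of -0.091 to 0.72. For Mpg, which removes alkylated purines, the difference was 0.10 (-0.13 to 0.34), for Ogg1, the 8-oxoguanine glycosylase, 0.048 (-0.10 to 0.20), for Nthl1, which also removes oxidised bases, 0.12 (-0.082 to 0.33) and for Ung, the uracil glycosylase, 0.001 (-0.15 to 0.16). The intervals of Mpg, Ogg1, Nthl1 and Ung all held 0.

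The later steps were also not called, apart from Xrcc1. Apex1, the endonuclease that cuts at an abasic site, had levels of 4.82, 4.77 and 5.12 in the control samples and 5.10, 5.07 and 5.01 in the BBMP samples. Control replicate 3 was the highest of the 6 samples, and the difference was 0.15 ± 0.106 (SE; limma adjusted p = 0.337). Within slide row 1, where control replicate 3 is the only control, it was -0.061. Lig1, the ligase of long-patch repair and of replication, showed no overlap of the groups at a difference of 0.15 ± 0.0707 (SE; limma adjusted p = 0.193), and its other probe was at 0.18 (limma over every probe tested, adjusted p = 0.0756). Parp1 and Parp2, which bind breaks and make poly(ADP-ribose), were at -0.061 and 0.095, and the gap-filling polymerase gene Polb at -0.079, with limma adjusted p from 0.354 to 0.506. The other probe of Parp1 had the opposite sign, at 0.11 (limma over every probe tested, adjusted p = 0.323), and that of Parp2 was at 0.10.

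Nucleotide excision repair held 3 of the 5 called members: of 8 tested, 1 rose and 2 fell, and the groups did not overlap in 6, where the shares of all genes were 17.9% called and 43.6% without overlap. With so few genes these counts are a description of the 8. Ercc1, which with its partner XPF forms the nuclease that cuts 5' of the lesion, had levels of 0.95, 0.93 and 1.01 in the control samples and 1.31, 1.32 and 1.32 in the BBMP samples. The BBMP samples lay close together, and every one of them was above every control. The means were 0.96 ± 0.0376 (SD, n = 3) in controls against 1.32 ± 0.00343 (SD, n = 3) after BBMP, 1.28-fold higher, with a difference of 0.35 ± 0.0542 (SE; limma adjusted p = 0.0166). The second probe for Ercc1 gave a like value and also passed, with a difference of 0.25 ± 0.0569 (SE; limma over every probe tested, adjusted p = 0.0349). With 1 array left out the difference was 0.34 to 0.37, with adjusted p of 0.0352 to 0.0613, and within slide row 1 it was 0.31.

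Ercc3 encodes the XPB translocase of TFIIH, which opens the DNA around the lesion and also serves transcription. Its levels were 3.52, 3.47 and 3.54 in the control samples and 3.17, 3.22 and 2.94 in the BBMP samples. All BBMP samples were below all controls, with BBMP replicate 3 the lowest. The means were 3.51 ± 0.0320 (SD, n = 3) in controls against 3.11 ± 0.153 (SD, n = 3) after BBMP, 1.32-fold lower, with a difference of -0.40 ± 0.0904 (SE; limma adjusted p = 0.0358). The second probe for Ercc3 did not pass, with a difference of -0.11 ± 0.0724 (SE; limma over every probe tested, adjusted p = 0.315), and with the mean of both probes Ercc3 was at -0.26 (adjusted p = 0.0747). Leaving out single arrays gave -0.46 to -0.31, with adjusted p of 0.0624 to 0.0924, and within slide row 1 it was -0.43.

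The transcription-coupled branch is started by the proteins of Ercc6 (CSB), a remodeller at the stalled polymerase, and Ercc8 (CSA), part of a ubiquitin ligase. Ercc6 had levels of -0.17, -0.15 and -0.15 in the control samples and -0.49, -0.32 and -0.44 in the BBMP samples. The BBMP samples lay below the controls, at -0.16 ± 0.00888 (SD, n = 3) in controls against -0.42 ± 0.0873 (SD, n = 3) after BBMP, and Ercc6 was 1.20-fold lower, with a difference of -0.26 ± 0.0661 (SE; limma adjusted p = 0.0461). Its 2 other tested probes did not follow: they were at 0.35 ± 0.174 and -0.035 ± 0.0941 (SE; limma over every probe tested, adjusted p = 0.198 and 0.819), and with the mean of the 3 probes Ercc6 was at 0.019 (adjusted p = 0.901). Across fits without 1 array the difference was -0.31 to -0.23, with adjusted p of 0.0671 to 0.124, and within slide row 1 it was -0.27.

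Ercc8 had levels of -0.97, -0.76 and -1.05 in the control samples and -0.73, -0.73 and -0.45 in the BBMP samples. The groups did not overlap, although the difference did not pass, at 0.29 ± 0.116 (SE; limma adjusted p = 0.130). Its 2 other probes had positive differences too, of 0.33 and 0.16. Ercc2, the XPD helicase of TFIIH, had levels of -3.09, -2.89 and -2.75 in the control samples and -2.67, -2.66 and -2.89 in the BBMP samples. These overlapped, with a difference of 0.17 ± 0.114 (SE; limma adjusted p = 0.319). For Xpa, which verifies the lesion, the difference was 0.10 (-0.046 to 0.25, 95% interval), for the lesion sensor Xpc 0.067 (-0.29 to 0.42) and for its partner Rad23b -0.074 (-0.21 to 0.064). The groups did not overlap for Xpa and Rad23b, whose differences are small.

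**Figure D4:**
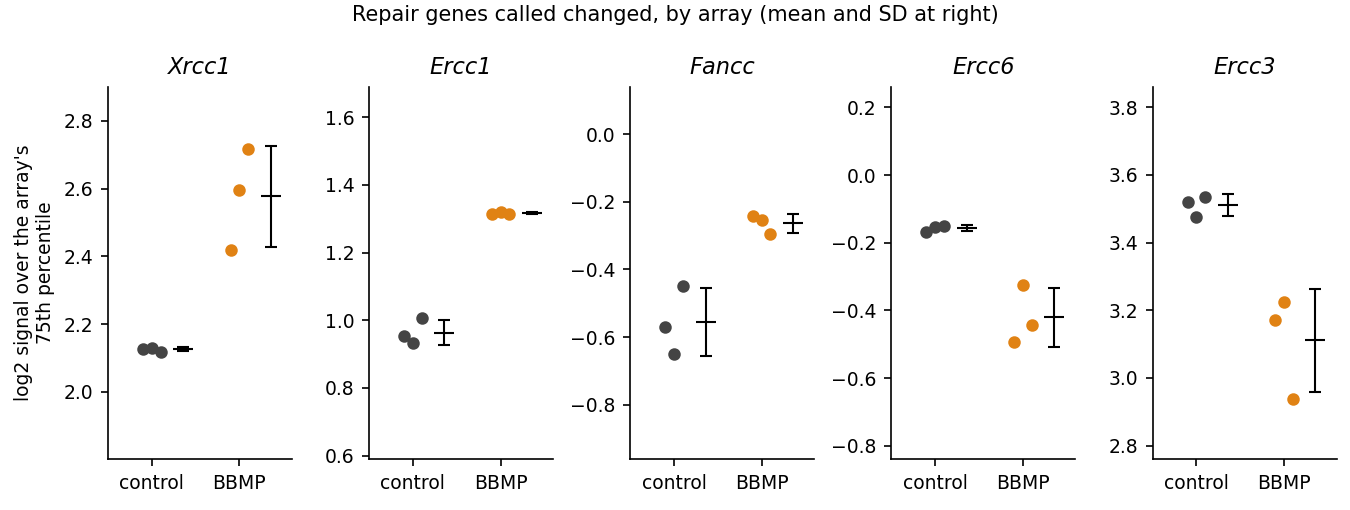
Log2 signal over the array's 75th percentile for each of the 6 arrays (points) in the 5 called repair genes, with the group mean and SD at the right of each group; all panels span the same range of log2 units. In each panel the 3 control points and the 3 BBMP points do not overlap, and the BBMP points of Ercc1 lie between 1.31 and 1.32.

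Mismatch repair and direct reversal showed no called member among 3 tested, and the groups overlapped in all 3. Of all genes, 17.9% were called and 43.6% had no overlap. Msh3, which forms part of the dimer that binds insertion and deletion loops, had levels of 0.047, -0.22 and -0.16 in the control samples and -0.18, 0.14 and -0.13 in the BBMP samples. Its difference was 0.054 ± 0.118 (SE; limma adjusted p = 0.771). Mgmt, the methyltransferase that takes alkyl groups directly off guanine, had levels of 2.09, 2.17 and 2.43 in the control samples and 2.27, 2.11 and 2.06 in the BBMP samples. The groups overlapped, with a difference of -0.084 ± 0.113 (SE; limma adjusted p = 0.625) and a 95% interval of -0.36 to 0.19. Pms2, a subunit of the nuclease that acts after mismatch binding, was at 0.034 (-0.21 to 0.28). For these 3 genes the interval lay within 1.5-fold in both directions.

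In homologous recombination and end resection, 0 of 4 tested members were called by limma, with 1 at an unadjusted p under 0.05. The shares of all genes were 17.9% and 36.6%. Mre11, the nuclease of the MRN complex that trims broken ends, had levels of -3.27, -3.38 and -3.35 in the control samples and -3.19, -3.05 and -2.83 in the BBMP samples. The BBMP samples were all above the controls, and the difference of 0.31 ± 0.103 (SE; limma adjusted p = 0.0861) did not pass. The 2 partners of Mre11 did not share its separation of the groups. Nbn, which recruits ATM to the break, had levels of 2.11, 2.34 and 2.12 in the control samples and 2.19, 1.85 and 2.20 in the BBMP samples. Its difference was -0.11 ± 0.124 (SE; limma adjusted p = 0.557), and that of Rad50, the ATPase of the complex, was 0.081 (-0.24 to 0.40, 95% interval). Brca2, which loads the recombinase, was at 0.039 (-0.21 to 0.29), with its other tested probe at -0.094.

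Non-homologous end joining had 0 of 4 tested members called by limma, beside 17.9% of all genes. In 3 the unadjusted p was under 0.05 and the groups did not overlap, where the shares of all genes were 36.6% and 43.6%. Xrcc4 and Lig4 encode the scaffold and the ligase of the final joining step, which bind each other. Xrcc4 had levels of -1.87, -1.89 and -1.98 in the control samples and -2.21, -2.12 and -2.40 in the BBMP samples. Lig4 had levels of -1.40, -1.38 and -1.20 in the control samples and -1.57, -1.62 and -1.78 in the BBMP samples. Every BBMP sample was below every control for both genes, at differences of -0.33 ± 0.0890 and -0.33 ± 0.0909 (SE; limma adjusted p = 0.0536 and 0.0567), just short of passing. Xrcc4 was called lower in 4 of the 14 other settings, under cyclic loess, median scaling, quantile normalization and with only probes above background on all arrays, at -0.33 to -0.41. Lig4 was called lower in 5, at -0.33 to -0.41. With 1 array left out their differences stayed below 0, from -0.39 to -0.25 for Xrcc4 and -0.37 to -0.27 for Lig4, and were not called.

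The Ku subunits, which form the ring that first grips a broken end, had values that differed from those of Xrcc4 and Lig4. Xrcc6, Ku70, was at 0.22 ± 0.0636 (SE; limma adjusted p = 0.0631), with all BBMP samples above all controls and its other probe at 0.14. It was called higher with trend and robust moderation. Xrcc5, Ku80, was at 0.013 with a 95% interval of -0.13 to 0.15, and its groups overlapped. The median of the 4 end-joining genes was -0.16.

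Of the damage signalling kinases, 0 of 3 tested were called by limma, 1 had an unadjusted p under 0.05, and all 3 differences were negative. Of all genes, 17.9% were called, 36.6% had such a p, and 13750 of 31582 had a negative difference. With only 3 genes these counts give no direction for the class. Atm, the kinase that answers double-strand breaks, had levels of -3.46, -3.46 and -3.40 in the control samples and -3.67, -3.57 and -3.55 in the BBMP samples. These groups did not overlap, and the difference was -0.15 ± 0.0611 (SE; limma adjusted p = 0.130). It was called lower with quantile normalization (-0.25) and cyclic loess (-0.31), and its other tested probe was at -0.075. Chek1, the effector kinase of stalled replication forks, had levels of -3.92, -4.28 and -4.33 in the control samples and -4.93, -4.22 and -4.44 in the BBMP samples. BBMP replicate 2 lay inside the control range, and the 95% interval of the difference, -0.87 to 0.17, was the widest of all members, with a difference of -0.35 ± 0.210 (SE; limma adjusted p = 0.276). Chek2, the effector kinase downstream of ATM, was at -0.12 (-0.30 to 0.073), and its other probe at -0.29.

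In the Fanconi anaemia pathway of crosslink repair, 1 of 3 tested members rose and 0 fell. Of all genes, 10.2% were called higher and 7.68% lower, and 1 call among 3 genes is a description only. Fancc, a subunit of the core complex that ubiquitinates the FANCD2 protein, had levels of -0.57, -0.65 and -0.45 in the control samples and -0.24, -0.25 and -0.30 in the BBMP samples. The BBMP samples lay above the controls, at -0.56 ± 0.101 (SD, n = 3) in controls against -0.26 ± 0.0287 (SD, n = 3) after BBMP, and Fancc was 1.22-fold higher, with a difference of 0.29 ± 0.0716 (SE; limma adjusted p = 0.0433). It did not pass with median scaling, at 0.22, and within slide row 1 it was at 0.18. With 1 array left out it ranged from 0.25 to 0.35, with adjusted p of 0.0421 to 0.118.

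Fancd2, which marks the crosslink once ubiquitinated, had levels of -5.05, -4.59 and -4.86 in the control samples and -4.27, -4.29 and -4.54 in the BBMP samples. The groups did not overlap, and its difference, 0.47 ± 0.141 (SE; limma adjusted p = 0.0699), was the largest of all members but did not pass. It lies in the dimmest of the 4 brightness groups, where the median difference of all genes was 0.20, and with normexp background correction it was at 0.16. Fancl, the ubiquitin ligase subunit of the core complex, had levels of -0.46, -0.25 and -0.55 in the control samples and -0.53, -0.55 and -0.61 in the BBMP samples. Its groups overlapped, with a difference of -0.15 ± 0.0921 (SE; limma adjusted p = 0.303).

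For translesion synthesis, 0 of 3 tested members were called by limma, with 1 at an unadjusted p under 0.05, and all 3 differences were negative. The shares of all genes were 17.9% called and 36.6% with such a p, and 13750 of 31582 were negative. So few genes give no direction for the class. Rad18, the ubiquitin ligase that modifies PCNA to bring in the translesion polymerases, had levels of -3.48, -3.36 and -3.43 in the control samples and -3.74, -3.84 and -3.59 in the BBMP samples. Each BBMP sample was below each control, at a difference of -0.30 ± 0.0835 (SE; limma adjusted p = 0.0572). Rad18 passed on the lower side under cyclic loess, median scaling and quantile scaling, at -0.46, -0.38 and -0.40. Polh, the polymerase that copies past ultraviolet photoproducts, had levels of -2.13, -1.99 and -1.95 in the control samples and -2.25, -2.15 and -1.86 in the BBMP samples. These overlapped, with a difference of -0.062 ± 0.119 (SE; limma adjusted p = 0.738). Polk was at -0.048 (-0.23 to 0.14, 95% interval), while its other tested probe was at -0.32 ± 0.0876 (SE; limma over every probe tested, adjusted p = 0.0563).

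Set side by side, excision, mismatch and direct repair had 4 of 22 tested members called, or 18.2%, and a median difference of 0.081. Strand-break repair, signalling, crosslink repair and translesion synthesis had 1 of 17 called, or 5.88%, and a median of -0.062. Both shares stand beside 17.9% of all genes. Other measures were higher in the second group. An unadjusted p under 0.05 was reached by 5 of the 22 and 8 of the 17, beside 36.6% of all genes. The groups did not overlap in 40.9% and 47.1%, beside 43.6% of all genes. The median size of a difference, without its sign, was 0.10 and 0.15. Xrcc4, Lig4, Rad18 and Atm, called lower only with other settings, are all in the second group. So is Xrcc6, which was called higher with trend and robust moderation. The difference between the groups of pathways was not tested. The class medians ran from -0.16 in end joining and -0.15 in the signalling kinases, through -0.062 in translesion synthesis, 0.034 in mismatch and direct reversal, 0.060 in recombination, 0.084 in nucleotide excision and 0.10 in base excision, to 0.29 in the crosslink pathway. The sign of several of these medians changed with the setting: base excision was at -0.00070 and nucleotide excision at -0.015 within slide row 1, mismatch and direct reversal at -0.041 with median scaling, and recombination at -0.015 with median scaling, -0.032 with cyclic loess and -0.039 with normexp. With median scaling nucleotide excision was at 0.0089. Of 19 members with several tested probes, all probes had the same sign in 16, and 19 of 22 other probes had the sign of the one used.

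A wider list held 75 other repair genes. Of the 54 that were tested, 5 were called higher and 4 lower, or 16.7%, beside 17.9% of all genes, and their median difference was -0.010. Other measures were above those of all genes. An unadjusted p under 0.05 was reached by 28 of the 54, beside 36.6% of all genes. The groups did not overlap in 31, or 57.4%, beside 43.6% of all genes. A further 17 had no matched probe and 4 were not well above background on all arrays of either group. The list's calls were spread over the pathways. In end processing, Polm, a gap-filling polymerase of end joining, rose 1.46-fold, with means of 4.07 ± 0.0340 (SD, n = 3) in controls against 4.62 ± 0.0480 (SD, n = 3) after BBMP, with a difference of 0.55 ± 0.0583 (SE; limma adjusted p = 0.0112). Tdp2, which frees ends blocked by topoisomerase II, was 1.36-fold lower at a difference of -0.44 ± 0.0674 (SE; limma adjusted p = 0.0165).

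Polm was at 4.09, 4.03 and 4.08 in the control samples and 4.66, 4.63 and 4.56 in the BBMP samples. The groups did not overlap, nor did those of Tdp2, at 1.58, 1.70 and 1.57 in the control samples and 1.23, 1.17 and 1.12 in the BBMP samples. In nucleotide excision, Gtf2h3, a core subunit of TFIIH, rose 1.30-fold at a difference of 0.38 ± 0.0629 (SE; limma adjusted p = 0.0186), whereas Mnat1, of the kinase module of TFIIH, was 1.26-fold lower at a difference of -0.34 ± 0.0570 (SE; limma adjusted p = 0.0198). TFIIH genes thus went both ways, with Ercc3 lower, Gtf2h3 higher and Ercc2 not called. The glycosylase gene Neil2 was also called higher, at a difference of 0.81 ± 0.201 (SE; limma adjusted p = 0.0440). Its very dim probe was well above background on 0 control arrays and on 3 BBMP arrays. Neil2 thus entered the tests only through the BBMP group, and the size of its difference is uncertain. Its levels were -6.27, -6.85 and -6.24 in the control samples and -5.89, -5.50 and -5.53 in the BBMP samples. With only probes above background on all 6 arrays, 4 genes of the list were called higher. In checkpoint and recombination, Rad1, a subunit of the 9-1-1 clamp, was 1.24-fold lower at a difference of -0.31 ± 0.0677 (SE; limma adjusted p = 0.0331) and Rad54l, a recombination translocase, 1.19-fold lower at a difference of -0.26 ± 0.0555 (SE; limma adjusted p = 0.0326). This list was also sensitive to the scaling: median scaling gave 3 called higher and 15 lower, and normexp background correction 6 and 7. Of all genes, 18.5% and 20.2% were called in these 2 settings, both smaller shares than those of the 54 listed genes.

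Genes known as targets of the damage response had 2 of 16 tested members called higher and 0 lower, or 12.5%, beside 17.9% of all genes called and 10.2% called higher, and a median difference of -0.042. The 2 were Phlda3, an inhibitor of AKT, with levels of -3.57, -3.55 and -3.56 in the control samples and -3.07, -3.25 and -3.20 in the BBMP samples, and the sestrin gene Sesn2, with levels of -0.24, -0.055 and 0.084 in the control samples and 0.63, 0.38 and 0.37 in the BBMP samples. Both had all BBMP samples above all controls, at 1.31-fold and 1.45-fold (limma adjusted p = 0.0216 and 0.0332). The other 3 with an unadjusted p under 0.05 were not called: Gadd45a, a stress-induced growth arrest gene, was at 0.32 ± 0.105 (SE; limma adjusted p = 0.0864), Cdkn1a, the cell cycle inhibitor, at 0.19 ± 0.0624 (SE; limma adjusted p = 0.0913) and Mdm2, the ligase that limits p53, at -0.26 ± 0.0902 (SE; limma adjusted p = 0.0952). The count of targets called higher was 1 with cyclic loess and 4 with normexp, where 17.2% and 20.2% of all genes were called in either direction.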

How the data were processed

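Arrays of 3 control and 3 BBMP samples were analysed. The deposited scanner files, read with Agilent Feature Extraction 10.7.1.1 per the file headers (10.7 per the submitters' processing notes), hold intensity on a linear scale, with the processed signal as that software wrote it (its background settings are not given in the sources used here), and flags scored 0 or 1, a score per spot in the deposited files. The authors' deposited ratio table holds, as a ratio, the processed signal over about the array's 75th percentile. It is on a linear scale with no centring, in the same direction as the scanner signal, with column medians of 0.106 to 0.113. Set against the scanner values, each column fitted best to a different replicate within its group, so replicate numbers are uncertain. The array design is on rn4, and no coordinates from it were used.

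Of 61657 non-control probes, 84 ERCC spike-in probes and 10 probes with an outlier flag were left out. Each processed signal was divided by the 75th percentile of the remaining 61563 on its array and taken to log2. Probes well above background on all 3 arrays of a group (42657) were tested, the brightest probe standing for each gene, and RefSeq accessions were named through the GRCr8 table, which named 27460 probes. limma 3.58.1 in R 4.3.3 (lmFit, eBayes, two-sided, no covariates) was fitted over all 31582 genes with Benjamini-Hochberg adjustment, after a check on simulated data. No representative spot of a member was saturated. Plots used Python 3.11.15 and matplotlib 3.10.9. Precision is limited by having 3 arrays in each group.

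Members, lists and tests were chosen with earlier results of these data known. Values in every sample were given for called members and, of the rest, the 2 with the largest difference in each of 8 classes. For other lists up to 5 called genes each way were named, some by their difference alone. Some called genes of the wider list are not reported here. Other members were given by interval. Alternatives covered normalization (quantile, median, cyclic loess, percentile over detected probes), normexp with an offset of 50 on the median signal followed by quantile normalization, the authors' ratio table, no or a stricter filter on dim signals, averaging a gene's probes, ERCC probes kept, trend and robust moderation, blocks for replicate number and slide row, slide row 1 alone, and leaving out each array.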

Additional observations from a re-analysis of the deposited data

How the results depend on the processing

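With normexp, which was run on the median signal and followed by quantile normalization, Fancd2 was at 0.16 and Neil1 at 0.20, from 0.47 and 0.32. Fancd2 is in the dimmest brightness group and Neil1 is not. Which of these steps moved them was not tested. The members called were 3 higher and 2 lower. They were 0 and 0 with the replicate block, with slide row as a block and with slide row 1 alone. Those called lower were 6 with quantile normalization, 5 with median scaling, 6 with cyclic loess, 0 with no filter on dim probes (where more probes enter the adjustment) and 0 with the mean of all probes. Of all genes, 16.7%, 18.5%, 17.2%, 9.68% and 16.4% were called in either direction in these settings. Same-numbered samples deviated from their group means with correlations of -0.12, -0.089 and -0.063, and differently numbered ones with -0.052 to 0.13. Since the replicate numbers are uncertain, these values cannot settle whether samples were paired. The replicate block called 0 of all genes too, with 10 members at an unadjusted p under 0.05.

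Of the other repair genes, those called higher were 5, and 3 with median scaling or no filter on dim probes. Those called lower were 4, and 15 with median scaling, 7 with normexp background correction, 2 with no filter on dim probes, 8 with only probes above background on all arrays, 7 with the mean of all probes and 9 with trend and robust moderation. Of all genes, 18.5%, 20.2%, 9.68%, 20%, 16.4% and 21.2% were called in either direction in these settings. The damage-response targets called higher were 2, and 1 with cyclic loess, 4 with normexp and 1 with no filter. Both lists had 0 called each way with the replicate block, slide row as a block and slide row 1 alone.

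The members' median of 0.039 was 0.014 with quantile normalization, -0.036 with median scaling, 0.012 with cyclic loess and -0.0020 within slide row 1 or with slide row as a block. Base excision was at -0.00070 and nucleotide excision at -0.015 in the last 2 settings. End joining was at -0.23 with median scaling. The signalling kinases were at -0.25 with quantile normalization, -0.23 with median scaling, -0.31 with cyclic loess and -0.20 with the mean of all probes. The crosslink genes were at 0.22 with median scaling, 0.16 with normexp and 0.18 within slide row 1 or with slide row as a block. All genes were refitted in these settings, but the differences of single genes were read out only for the 21 members given in every sample. Of those, the sign changed for Ercc6 to 0.019 with the mean of all probes, for Apex1 to -0.061 within slide row 1 or with it as a block, and for Msh3 to -0.021 with median scaling. Median scaling moved the median of all genes from 0.050 to -0.026, so other members with small positive differences would turn too. The cause was not tested in any of these.

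With 1 array left out, members called were 0 to 2 higher and 0 to 0 lower, other repair genes 0 to 4 and 0 to 5, and targets 0 to 2 and 0 to 1. The medians were -0.00031 to 0.055 for all members, 0.042 to 0.13 in base excision, 0.021 to 0.16 in nucleotide excision, -0.052 to 0.091 in mismatch and direct reversal, 0.0084 to 0.15 in recombination, -0.18 to -0.11 in end joining, -0.18 to -0.12 in the kinases, 0.25 to 0.35 in crosslink repair and -0.18 to -0.0045 in translesion synthesis. Of the same 21 members, Mgmt, Msh3, Nbn and Polh changed sign there, over -0.15 to 0.015, -0.045 to 0.13, -0.17 to 0.0038 and -0.18 to 0.021.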
